A study of Mus musculus with 6 samples.

Results

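The genes described here are the matrix metalloproteinases (Mmp), the disintegrin metalloproteases of the cell surface (Adam), their secreted relatives (Adamts) and the related proteins without a protease domain (Adamtsl), the tissue inhibitors of metalloproteinases (Timp) and the HTRA serine proteases (Htra). A gene was a member if its name on the array was one of these stems followed by a number, and each gene was represented by its brightest probe by the mean over the 6 arrays. This gave 79 members of 19575 named genes: 28 Adam, 21 Mmp, 17 Adamts, 5 Adamtsl, 4 Timp and 4 Htra genes. The rule used names and mean levels, not differences, and was set with earlier results of these data known.

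RNA came from the autopod, the hand and foot part of the limb, of mouse embryos of stage E14.5 on a C57BL/6 background. Cells of the interzone (the band between 2 future bones where a joint forms), of the neighbouring growth plate cartilage and of the interdigital tissue were cut out by laser from frozen sections. Each of these 3 tissues was taken from controls labelled wild type and from Tgfbr2Prx1KO littermates; the name follows the convention for deletion of Tgfbr2, a receptor for TGF-beta, by a Cre recombinase driven in limb mesenchyme by Prx1 sequences, so that epidermis and blood vessels keep the gene. The labels give 2 embryos per genotype and 1 array per tissue and genotype, and leave unstated how the tissue of the embryos was combined. A pair of arrays therefore has no replicate check, and every difference within a pair is a value without a test.

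Metalloproteinases use a zinc ion to cut proteins of the extracellular matrix and of the cell surface, most are made as inactive precursors, and TIMPs block them by binding to the active site. Membrane-bound MMPs such as Mmp14 activate others, of which the gelatinase Mmp2 is the best known. The Adamts proteases include enzymes that cut the proteoglycans aggrecan and versican, enzymes that trim procollagen, and enzymes that act on fibrillin fibres, while ADAMs release growth factors, Notch and their receptors from the cell surface. In the limb, versican cutting by Adamts5, Adamts9 and Adamts20 is known for its part in the loss of the web between digits, Mmp13 and Mmp9 for cartilage replacement, and TGF-beta is a known regulator of several of these genes in fibroblasts and chondrocytes.

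A level below is the log2 of the processed signal minus the 75th percentile of the same array, so 0 marks a signal at that percentile; levels of different genes came from different probes and were not compared. The growth plate control array stood apart, with a median signal of 103 against 340 to 502 on the other arrays and 72.3% of its spots well above background, the lowest share of the 6. Slide 1 carried all 3 controls plus the interzone mutant, and slide 2 the other 2 mutants. Genotype and slide thus cannot be told apart in the growth plate and interdigital pairs, and the interzone pair lay within 1 slide. Brightest-probe Tgfbr2 levels were 2.42 and 2.24 in control and mutant interzone, -2.40 and 1.20 in growth plate, and 2.50 and 1.92 in interdigital tissue. The brightest probe thus did not separate the genotypes. Another probe was higher on the mutant array in each tissue. The dimmest probe was at -3.38 in control and -6.98 in mutant interdigital tissue. In growth plate it was not well above background in control and at -5.14 in mutant, and in interzone it was in neither genotype well above background. Where the Tgfbr2 probes lie relative to the deleted part was not tested. Markers of the captured tissues also varied: the interzone markers Gdf5, Erg, Sfrp2 and Osr2 were at least 2-fold lower on the mutant than on the control interzone array, 6 of 6 cartilage markers were at least 2-fold lower on the mutant growth plate array, and the cartilage gene Col2a1 was at 5.82 on the control interdigital array.

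Epidermal markers were higher on the mutant array in each tissue: 8 of 9 were at least 2-fold higher in interzone, 4 of 7 measured on both arrays in growth plate and 7 of 7 in interdigital tissue. Their summed signal, in units of the array's 75th percentile, was 17.1, 70.0 and 2.62 on the control interzone, growth plate and interdigital arrays and 157, 165 and 144 on the mutant arrays. Cdh1 and Trp63 were not well above background on the control growth plate and interdigital arrays. These values apply to every mutant and control comparison below, and their part in the members' differences was not tested.

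Of the 79 members, 62 were well above background on all 6 arrays, 16 on some and 1, the epididymal gene Adam7, on none. All 4 Timp and 4 Htra genes, 16 of 17 Adamts genes and 13 of 21 Mmp genes were in the first group. The number of members well above background was 73, 65 and 76 on the control interzone, growth plate and interdigital arrays and 73, 72 and 74 on the mutant arrays. The tooth enamel protease gene Mmp20 had no usable spot on the growth plate mutant array.

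The highest and lowest array lay within 2-fold in 5 of the 62 (8.06%), against 11.7% of the 15508 genes well above background on all 6 arrays. These were Mmp14, Timp4, Adamts20, Htra3 and Adam24, by their brightest probe; other probes of Adamts20 and Htra3 were less steady. The range was over 16-fold in 17 of the 62 (27.4%, against 17.8% of all such genes). Of the members with a value on all arrays, 35.9% were lowest on the growth plate mutant array, 25.6% on the growth plate control array and 1.28% on the interdigital control array, against 24.2%, 22.0% and 6.60% of all genes.

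**Figure D1:**
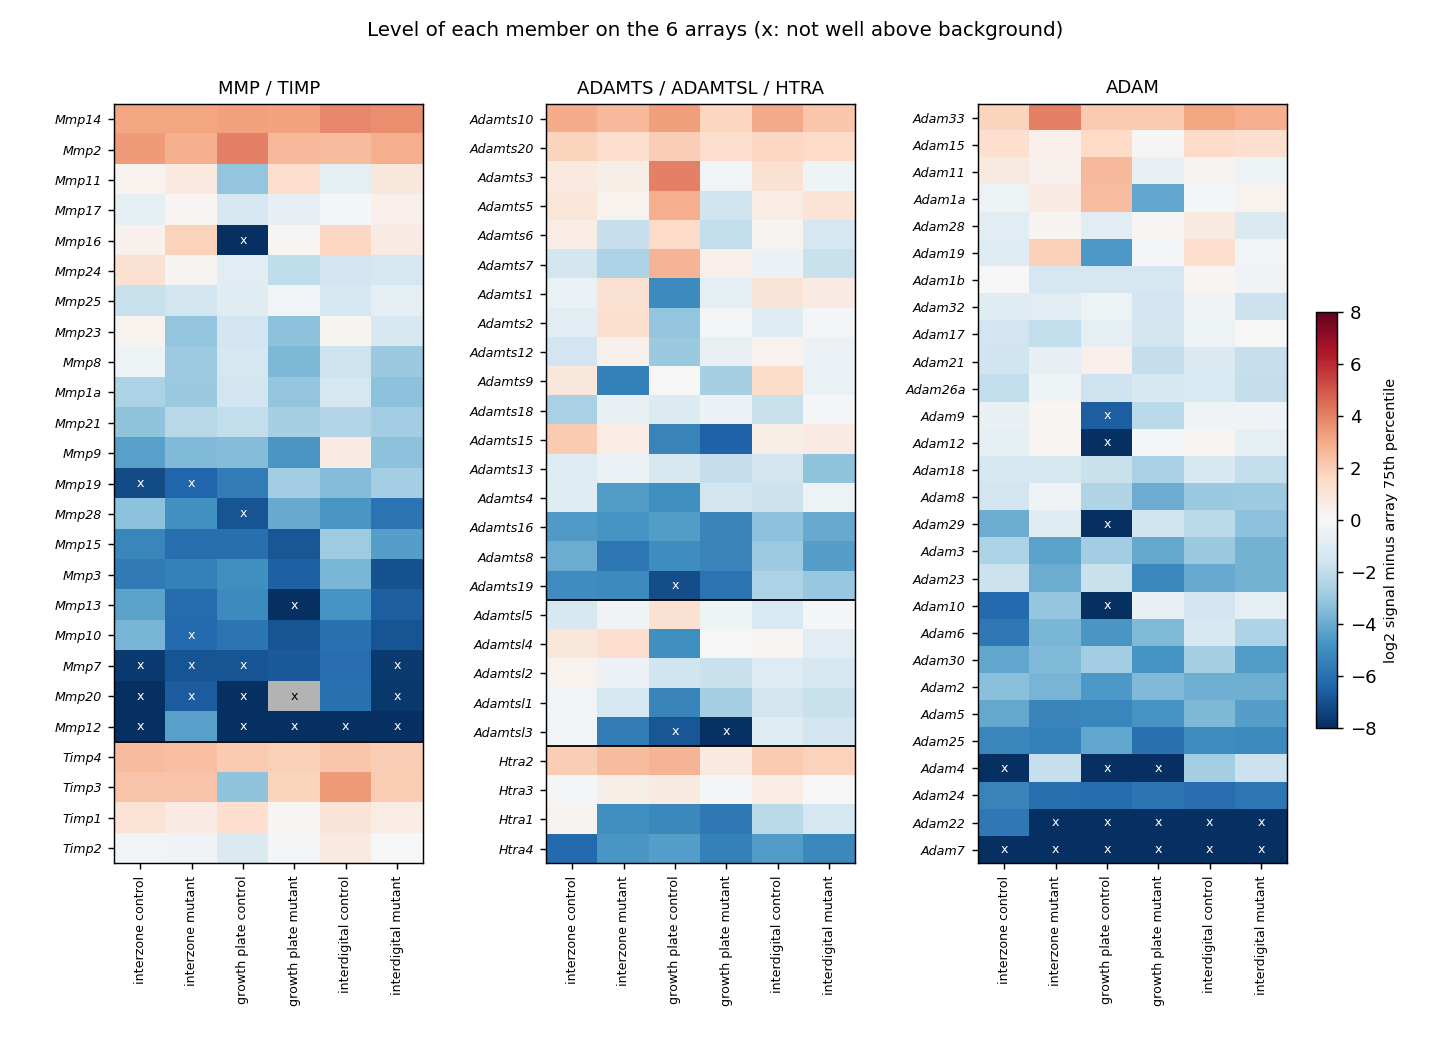
Heat map of the level (log2 of the signal relative to the 75th percentile of the array) of the 79 members, with families grouped in rows and the 6 arrays in columns; a cross marks a probe not well above background and grey a missing spot. Mmp14, Timp4 and Adamts20 have nearly one colour across the arrays, while Adamts15, Timp3, Htra1 and Mmp16 range over more than 5 log2 units.

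Among the membrane-bound MMPs, Mmp14 had levels of 3.13, 3.31 and 3.87 on the control interzone, growth plate and interdigital arrays and 3.18, 3.25 and 3.75 on the mutant arrays. Its pairs thus lay within 2-fold of each other in every tissue, as did those of its other probe. Mmp2, the gelatinase that it activates, was at 3.38, 4.03 and 2.55 on the control arrays and at 2.84, 2.57 and 2.89 on the mutant arrays, 2.75-fold lower on the mutant in growth plate and within 2-fold elsewhere. Mmp16, another membrane-bound enzyme, was at 0.37 in control and 1.81 in mutant interzone, and at 1.64 and 0.63 in interdigital tissue. In growth plate the control had no Mmp16 signal well above background and the mutant was at 0.10, at least 99.2-fold higher, a bound computed against the control's own signal or the lowest signal well above background, whichever was higher. Mmp15, also membrane-bound, was highest in interdigital tissue in both genotypes, with -2.87 for control and -4.43 for mutant, against -6.86 to -5.22 on the other 4 arrays.

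The gelatinase gene Mmp9, made by osteoclasts among other cells, was at 0.69 in control interdigital tissue and between -4.67 and -3.30 on the other 5 arrays. It was therefore 15.9-fold lower in the mutant than in the control interdigital array. The other Mmp9 probe differed by -0.88 in that pair, under 2-fold. Osteoclast markers (Acp5, Ctsk, Calcr and Tnfrsf11a) summed to 6.76 on that control array and 3.57 on the mutant array, and to 0.35 to 2.48 on the 4 others. Ctsk alone, at 2.61 in control and 1.53 in mutant, made up most of both sums, while Acp5 was at -1.20 and -0.92; their part in the Mmp9 value was not tested. Mmp13, the collagenase of hypertrophic cartilage, was at -4.29, -5.10 and -4.69 on the control arrays and -6.15 and -6.57 in mutant interzone and interdigital tissue, and was not well above background in mutant growth plate. These are 3.63-fold and 3.67-fold lower and at least 5.29-fold lower in growth plate; with normexp background correction the interzone difference turned to 1.80 on the log2 scale. Mmp11, a stromelysin activated inside the cell by furin, was at 0.30, -3.17 and -0.79 on the control arrays and at 0.81, 1.39 and 0.91 on the mutant arrays. All 3 mutant arrays lay above all 3 control arrays for Mmp11; the difference was 23.6-fold in growth plate, 3.26-fold in interdigital tissue and under 2-fold in interzone.

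Among the inhibitors, Timp1 was at 1.17, 1.33 and 1.06 on the control arrays and 0.68, 0.08 and 0.59 on the mutant arrays, so that every mutant array lay below every control array. The difference passed 2-fold in growth plate alone, at 2.39-fold; both other probes were lower there too, by -4.81 and -8.13 on the log2 scale. Timp2 was at -0.19, -1.15 and 0.71 on the control arrays and -0.27, -0.07 and 0.03 on the mutant arrays. Its one difference past 2-fold, 2.12-fold higher in mutant growth plate, turned direction with the deposited values. Timp4 was the steadiest inhibitor, with levels from 1.89 to 2.51. Timp3, the inhibitor that binds to matrix and also blocks ADAM and Adamts proteases, was at 2.29, -3.22 and 3.38 on the control arrays and 2.26, 1.77 and 2.06 on the mutant arrays. Its single probe gave 31.7-fold higher in mutant growth plate, where the control array has the low value, 2.49-fold lower in interdigital tissue and no difference past 2-fold in interzone.

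Among the HTRA proteases, Htra1, a secreted enzyme known for cutting matrix proteins and for its relation to TGF-beta family signalling, was at 0.23, -5.16 and -2.15 on the control arrays and -4.89, -5.72 and -1.42 on the mutant arrays. The interzone control alone lay above the 75th percentile; in the controls the level was 41.8-fold higher in interzone than in growth plate and 5.18-fold higher than in interdigital tissue, while in the mutants it was 11.1-fold lower in interzone than in interdigital tissue. Htra2, the mitochondrial member, was at 1.97, 2.74 and 2.07 on the control arrays and 2.54, 0.77 and 1.87 on the mutant arrays, 3.90-fold lower in mutant growth plate. Htra3 stayed between -0.17 and 0.70 by its brightest probe, whereas its other probes differed by -4.13 and -5.49 on the log2 scale in the interdigital pair and one of them by 4.80 in the interzone pair. Htra4 was at -6.24, -4.43 and -4.46 on the control arrays and -4.64, -5.42 and -5.13 on the mutant arrays, and was 3.05-fold higher in mutant interzone.

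Among the Adamts proteases that cut versican or aggrecan, Adamts1 was at -0.52, -5.08 and 1.06 on the control arrays and 1.24, -0.77 and 0.65 on the mutant arrays. It was 3.38-fold higher in mutant interzone and 19.8-fold higher in mutant growth plate; its other probe differed by -0.50 and 4.90 on the log2 scale. Adamts4 was at -0.94, -4.94 and -1.69 on the control arrays and -4.44, -1.50 and -0.43 on the mutant arrays, which is 11.3-fold lower in mutant interzone, 10.9-fold higher in mutant growth plate and 2.39-fold higher in mutant interdigital tissue. Adamts5 was at 0.97, 2.93 and 0.59 on the control arrays and 0.30, -1.58 and 1.11 on the mutant arrays. By its brightest probe it was highest in control growth plate and 22.8-fold lower on the mutant array there, with under 2-fold in the other tissues. Its other probe was not well above background on either growth plate array. In interzone that probe was at -3.64 in control and not well above background in mutant, at -8.69. Adamts20 lay between 1.36 and 1.99 on all 6 arrays, while one of its dimmer probes differed by -1.27 in the interdigital pair. Adamts15 was at 2.08, -5.37 and 0.49 on the control arrays and 0.59, -6.48 and 0.67 on the mutant arrays, low in growth plate in both genotypes and 2.82-fold lower in mutant interzone.

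Of the procollagen-trimming enzymes, Adamts2 was at -0.86, -3.15 and -0.99 on the control arrays and 1.26, -0.15 and -0.12 on the mutant arrays, so that every mutant array lay above every control array. The differences were 4.35-fold in interzone, 8.03-fold in growth plate and 0.87 on the log2 scale in interdigital tissue. Of its 3 other probes, 2 were lower in mutant interzone (-0.42 and -0.99) and 2 lower in mutant interdigital tissue (-1.08 and -1.21). Adamts3 was at 0.78, 4.02 and 1.25 on the control arrays and 0.46, -0.20 and -0.34 on the mutant arrays. It was 18.6-fold lower in mutant growth plate and 2.997-fold lower in mutant interdigital tissue. Its other probes differed by 0.61 and -1.19 on the log2 scale in growth plate and by -3.50 and -0.51 in interdigital tissue. Adamts12, which can cut the cartilage protein COMP, was 3.65-fold higher in mutant interzone and 5.16-fold higher in mutant growth plate. Its other probes differed by 0.62 and 1.16 on the log2 scale in interzone and by 0.05 and 5.35 in growth plate. Adamts10, linked to fibrillin, was above the 75th percentile on all 6 arrays by its brightest probe, from 1.72 to 3.34. Both other probes lay below that percentile on some arrays. They were higher by 1.56 and 2.45 on the log2 scale in mutant interzone, where the brightest differed by -0.36.

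The Adamtsl proteins share the non-catalytic part of the Adamts proteases. Adamtsl1 was at -0.19, -5.30 and -1.45 on the control arrays and -1.43, -2.68 and -1.77 on the mutant arrays, 2.37-fold lower in mutant interzone and 6.17-fold higher in mutant growth plate. Adamtsl2, which binds fibrillin and a latent TGF-beta binding protein, was at 0.30, -1.62 and -1.01 on the control arrays and -0.47, -1.79 and -1.28 on the mutant arrays. It was lower on the mutant array in each tissue by under 2-fold. Adamtsl3 was 41.8-fold lower in mutant interzone, with -5.62 against -0.24, and at -0.96 and -1.53 in interdigital tissue. It was not well above background in growth plate of either genotype. Adamtsl4 was at 0.88, -4.92 and 0.13 on the control arrays and 1.34, -0.02 and -0.82 on the mutant arrays, and its one difference past 2-fold was 29.9-fold higher in mutant growth plate.

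Among the ADAM sheddases, Adam17, which releases tumour necrosis factor and growth factors of the EGF family, was at -1.50, -0.77 and -0.43 on the control arrays and -1.98, -1.47 and -0.02 on the mutant arrays, within 2-fold in each pair. Adam10, which cuts Notch, was 8.79-fold higher in mutant interzone, with -3.09 against -6.22, and at -1.53 and -0.73 in interdigital tissue. In growth plate the mutant was at -0.59, at least 61.8-fold higher than the control, which was not well above background. Adam12 was at -0.73 and 0.16 in interzone and at 0.18 and -0.75 in interdigital tissue, and at least 86.6-fold higher in mutant growth plate, where the control array's signal was not well above background. Adam9 had the same arrangement, with at least 20.4-fold in growth plate and under 2-fold in the others. The other Adam12 probe was dimmer in mutant growth plate, at -5.62 against -8.75 in control. In interzone it was at -5.48 in control and -8.81, not well above background, in mutant. Adam19, a cell surface protease of developing mesenchyme, was at -1.02, -4.59 and 1.37 on the control arrays and 1.88, -0.18 and -0.25 on the mutant arrays. That is 7.50-fold and 21.3-fold higher in mutant interzone and growth plate and 3.08-fold lower in mutant interdigital tissue. The other Adam19 probes did not show the first 2: both were within 2-fold in interzone and in growth plate.

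Adam33 was at 1.76, 2.08 and 3.15 on the control arrays and 4.04, 2.11 and 2.89 on the mutant arrays, 4.87-fold higher in mutant interzone, where its other probes were higher by 1.44 and 3.87 on the log2 scale. Adam8, known from leukocytes and osteoclasts, was at -1.45, -2.38 and -2.99 on the control arrays and -0.27, -3.99 and -2.94 on the mutant arrays. Adam23, which lacks protease activity and acts in cell adhesion, was at -1.73, -1.79 and -4.05 on the control arrays and -3.99, -5.13 and -3.76 on the mutant arrays. It was 4.78-fold and 10.1-fold lower in mutant interzone and growth plate, and the first turned direction with normexp, to 0.15 on the log2 scale. The related Adam11 was 9.08-fold lower in mutant growth plate, from 2.57 to -0.61. Another Adam11 probe differed by -0.87 on the log2 scale there. The remaining Adam11 probe was not well above background in control growth plate and was at -5.16 in the mutant. Adam1a, of the members measured on both growth plate arrays, had the largest difference, 97.8-fold lower, with 2.44 for control against -4.17 for mutant, and lay between -0.41 and 0.64 on the 4 other arrays.

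Of the 28 Adam genes, 15 are known mainly from male germ cells or the epididymis, a list drawn up after the values had been seen. Of these, 12 were well above background on all 6 arrays, and 3 of their 80 detected levels lay above the 75th percentile. The list holds Adam1b but not Adam1a. Adam1a lay above that percentile in control growth plate (2.44), mutant interzone (0.64) and mutant interdigital tissue (0.30). The sperm chromatin genes Prm1, Prm2 and Tnp1 mark no tissue captured here; the first 2 had levels of 0.56 to 1.90 and Tnp1 of -2.37 to -1.34. All 3 were well above background on all 6 arrays, and their part in the levels of these Adam genes was not tested.

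In the interzone pair, 71 members were well above background on both arrays, of which 16 were at least 2-fold higher and 18 at least 2-fold lower on the mutant array (22.5% and 25.4%). Over all genes the shares were 17.9% and 22.7% (40.7% in either direction), so the members' shares lay near those of all genes. The median difference was -0.12 in the members and -0.11 in all genes. Of members measured on both arrays, the largest differences were those of Adamts9, 78.1-fold lower, Adamtsl3, 41.8-fold lower, and Htra1, 34.6-fold lower. In the other direction Adam29 was 8.10-fold (lower, at -0.34 on the log2 scale, by the mean over its probes), Adamts18 3.98-fold and Adam26a 3.11-fold higher, and the macrophage elastase gene Mmp12, well above background on no other array, was at least 6.38-fold higher, at -4.35. Adam4 was at least 36.1-fold higher. The other Adam29 probe was not well above background on the mutant array. In the same pair 4 macrophage markers were at least 2-fold higher and 1 lower on the mutant array, with a summed signal of 4.54 in control and 11.9 in mutant, and their part in the Mmp12 value was not tested. Skeletal muscle markers (5 of 6) and endothelial markers (4 of 7) were also at least 2-fold higher, with summed signals of 14.1 and 2.26 in control against 38.7 and 4.86 in mutant, and their part in the members' differences was not tested. The stromelysin gene Mmp10 had -3.71 on the control array and was not well above background on the mutant array, at least 5.69-fold lower. With normexp the split of the members was 28 higher and 9 lower, and over all genes 32.5% were higher and 12.4% lower.

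In the growth plate pair, 64 members were well above background on both arrays, of which 13 were at least 2-fold higher and 28 at least 2-fold lower on the mutant array (20.3% and 43.8%). Over all genes the shares were 22.2% and 32.7% (54.9% in either direction). The median difference was -0.79 in the members and -0.45 in all genes. The lower members included Adamts3, Adamts5, Adamts6, Adamts7 and Adamts9, and the germ cell gene Adam21 was 4.84-fold lower. Another 6 of the 79 members were higher by a bound of at least 2-fold, because the control array did not show them above background. Over all genes this held for 1078 of 19575. Cartilage markers had a median difference of -4.16 in this pair. Their signal summed to 399 on the control array against 49.4 on the mutant array. Hypertrophic cartilage (3 of 3), skeletal muscle (5 of 6) and erythroid markers (4 of 4) were also at least 2-fold lower, with summed signals of 40.3, 41.7 and 401 against 1.85, 13.1 and 127. Endothelial markers went the other way, with a summed signal of 0.80 in control and 6.59 in mutant. Of the 4 measured in both genotypes, 2 rose past 2-fold and 0 fell past it. Kdr, Tek and Tie1 were not well above background in control growth plate and were at -1.49, -0.07 and 0.15 in the mutant. The part of these lists in the members' differences was not tested. With the deposited values, scaled to each array's median, the split was 10 higher and 44 lower, with the median of all genes at -1.56. With the percentile taken over probes well above background on all arrays it was 16 and 21, with that median at -0.07.

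In the interdigital pair, 74 members were well above background on both arrays, of which 5 were at least 2-fold higher and 22 at least 2-fold lower on the mutant array (6.76% and 29.7%). Over all genes the shares were 10.1% and 16.1% (26.2% in either direction). The median difference was -0.56 in the members and -0.18 in all genes. The 5 higher members were Mmp11, Adamts18 at 3.19-fold, Adamts4, Adamtsl5 and Adam4. The lower members included 9 Mmp genes: besides Mmp9, the stromelysin gene Mmp3 was 10.2-fold lower, with -3.64 against -6.98, the collagenase gene Mmp1a was 3.66-fold, Mmp15 2.95-fold and the epilysin gene Mmp28 2.40-fold lower. Adamts13, which cuts von Willebrand factor, was 3.41-fold and Adam28 3.80-fold lower. The matrilysin gene Mmp7 and Mmp20 were at least 2.90-fold and 3.36-fold lower, being above background in the control alone. In this pair 4 of 7 endothelial markers and 2 of 6 macrophage markers were at least 2-fold lower on the mutant array, with summed signals of 11.4 and 14.7 in the control and 5.72 and 8.40 in the mutant; their part was not tested. With quantile normalization the split of the members was 10 higher and 22 lower, and over all genes 13.7% were higher and 14.1% lower.

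**Figure D2:**
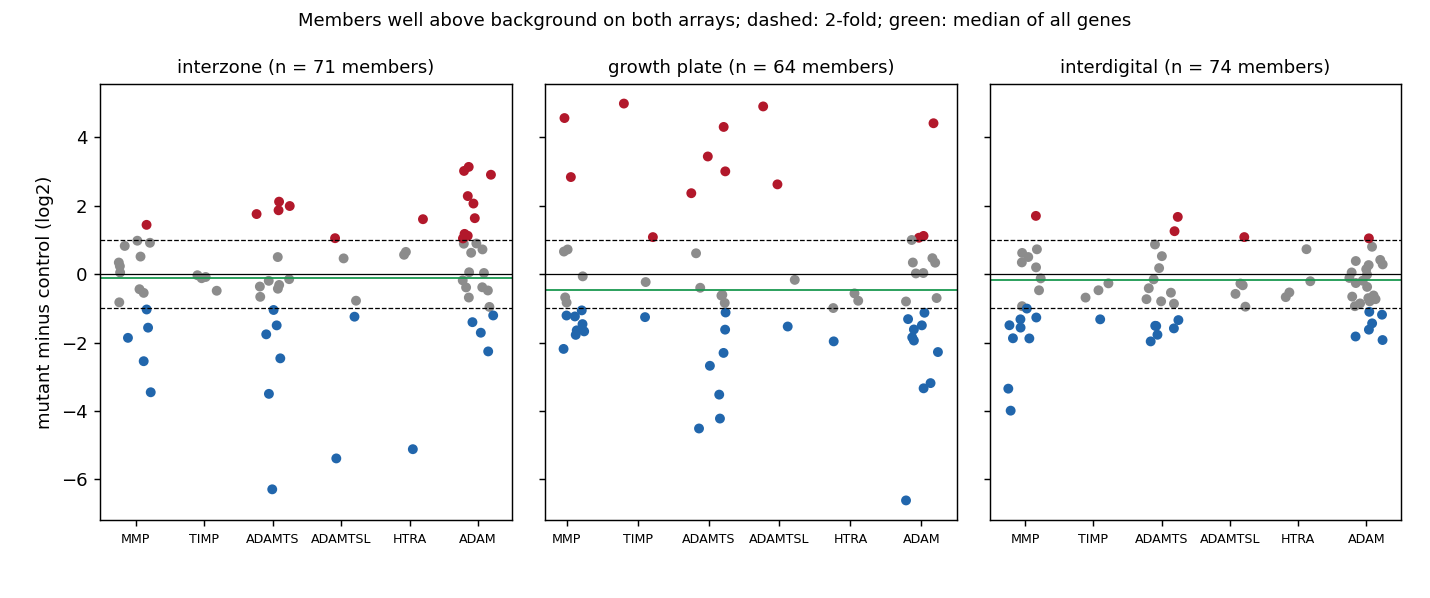
Mutant minus control difference in level (log2) of each member well above background on both arrays, by family and tissue, 1 point per gene, red at least 2-fold higher and blue at least 2-fold lower; the green line is the median of all genes and dashed lines mark 2-fold. All interdigital points but those of Mmp9 and Mmp3 lie within 4-fold of no difference, and growth plate points spread most widely, from Adam1a at -6.61 to Timp3 at 4.99.

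**Figure D3:**
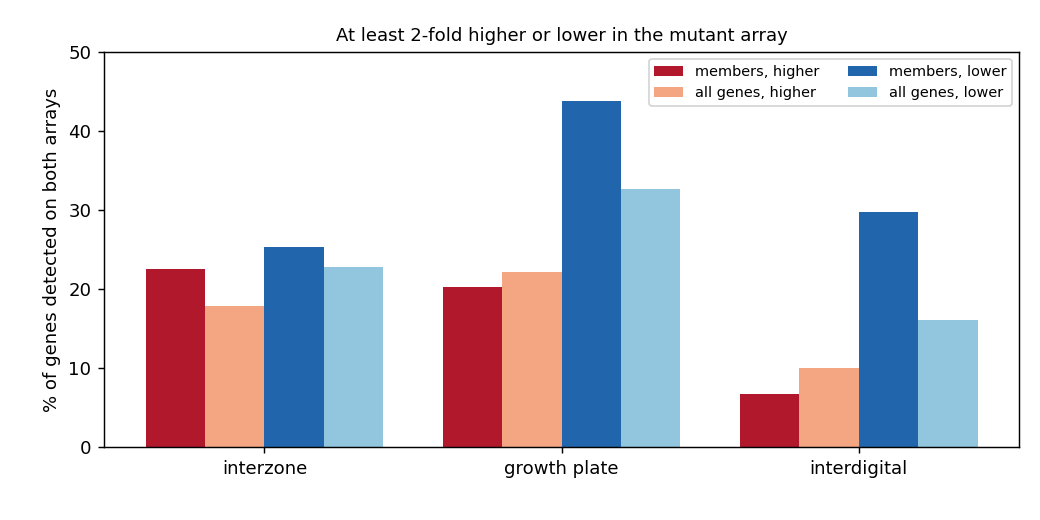
Bars starting at 0 give the percent of genes well above background on both arrays that were at least 2-fold higher or lower on the mutant array, for members and for all genes in each tissue. In interdigital tissue 29.7% of members and 16.1% of all genes were lower, and in interzone both shares were near those of all genes.

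The mutant array was at least 2-fold lower in all 3 tissues for 5 members: Adamts6, Adamts7, Adamts9, Mmp8 and Mmp23. They are 5 of the 62 members well above background on all 6 arrays (8.06%), against 1.89% of the 15508 such genes. Not 1 of the 62 was at least 2-fold higher in all 3, against 1.63% of all such genes. Adamts9, a versican-cutting protease, was at 0.89, 0.02 and 1.46 on the control arrays and -5.40, -2.66 and -0.51 on the mutant arrays. Adamts6, an enzyme linked to fibrillin fibres, was at 0.60, 1.53 and 0.19 on the control arrays and -1.86, -1.99 and -1.32 on the mutant arrays. For both genes every mutant array lay below every control array.

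Mmp23, an unusual membrane-anchored MMP that is released by cutting, was at 0.30, -1.51 and 0.19 on the control arrays and -3.15, -3.28 and -1.30 on the mutant arrays. The ranges overlapped, since control growth plate lay below mutant interdigital tissue. Mmp8, a collagenase best known from neutrophils, was at -0.38, -1.38 and -1.66 on the control arrays and -2.93, -3.57 and -2.98 on the mutant arrays, with no overlap. Adamts7, which can cut COMP, was at -1.44, 2.71 and -0.46 on the control arrays and -2.48, 0.41 and -1.80 on the mutant arrays, and its difference in interzone was 2.06-fold, just past the threshold. Its ranges overlapped because growth plate was the highest tissue in both genotypes.

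The folds for Adamts9 were 78.1, 6.40 and 3.90 in interzone, growth plate and interdigital tissue. For Adamts6 they were 5.50, 11.5 and 2.86, and for Mmp23 10.9, 3.42 and 2.81. For Mmp8 they were 5.83, 4.54 and 2.49, and for Adamts7 2.06, 4.93 and 2.53, of which the growth plate value turned direction, to 1.13 on the log2 scale, by the mean over its probes. Interzone, the pair within 1 slide, thus held the widest of the 3 differences for Adamts9, Mmp23 and Mmp8. Adamts6, Mmp8 and Mmp23 have a single probe each. The other Adamts7 probe was not well above background on the control growth plate array. A second Adamts9 probe was 2.19 higher on the log2 scale in mutant interzone, the opposite direction, and lower in growth plate (-0.50) and interdigital tissue (-1.78), while the remaining probe was at -3.21 in control interzone and not well above background in the mutant. Without the growth plate pair, a choice made after the data were seen, 8 of 71 members were at least 2-fold lower in both other tissues (11.3%, against 4.52% of 16488 genes), namely these 5 with Adamts8, Mmp13 and Mmp28, whose interzone differences all turned direction with normexp, and 2 were higher, Adamts18 and Adamtsl5 (2.82%, against 3.52%).

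**Figure D4:**
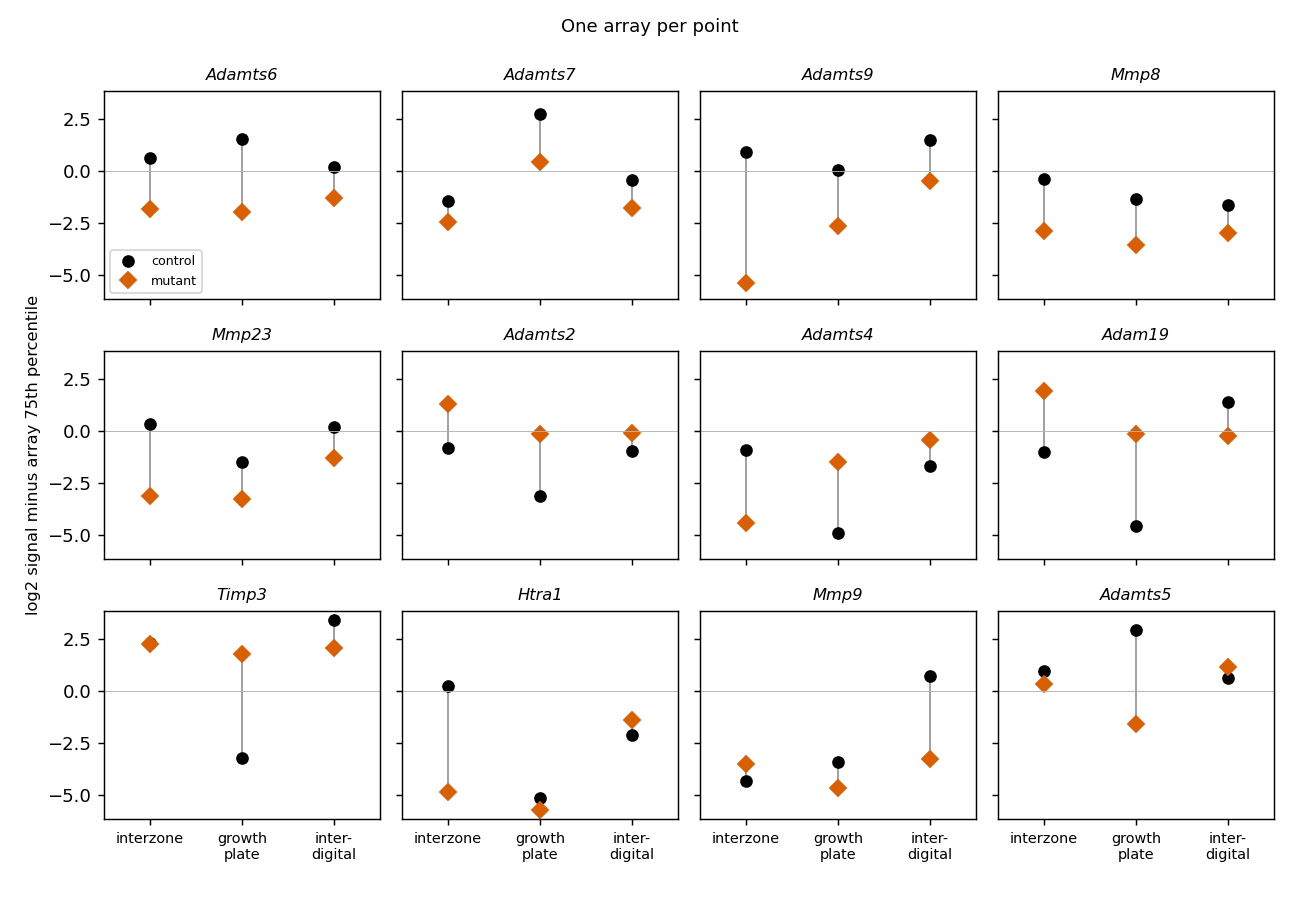
Level (log2 relative to the array's 75th percentile) of 12 members on the 6 arrays, with circles for control, diamonds for mutant and a line joining each pair. The diamond lies below the circle in all 3 tissues for Adamts6, Adamts7, Adamts9, Mmp8 and Mmp23 and above it for Adamts2, while for Adamts4 and Adam19 the order differs between tissues.

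The probes of these 5 lie, by the scanner files, whose genome build is not named, at chr13:101633753-101633812 (Adamts6), chr9:89828591-89828650 (Adamts7), chr6:92861199-92861258 (Adamts9), chr9:7566361-7566420 (Mmp8) and chr4:154640810-154640869 (Mmp23). No annotation of that build was used, so their place in exons is not given. In the RefSeq gene order 8 members, Mmp13, Mmp12, Mmp3, Mmp1a, Mmp10, Mmp8, Mmp20 and Mmp7, are neighbours on chromosome 9. Of these neighbours Mmp3, Mmp1a and Mmp8 were well above background on all 6 arrays, and Mmp12 and Mmp20 on 1 array each. In interdigital tissue 4 of the 8, Mmp13, Mmp3, Mmp1a and Mmp8, were at least 2-fold lower in the mutant, against 16.1% of all genes, and Mmp20 and Mmp7 were lower by their bounds.

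The 250 bases before the start of genes lower in mutant tissue are shown from RefSeq (GRCm38.p6), 5′ to 3′ on the gene's strand, for those of the 5 with an entry and for the neighbours Mmp13 and Mmp3. Adamts9 lies at chr6:92943535-92943784 (minus strand), Mmp23 at chr4:155653385-155653634 (minus strand, the more upstream of 2 starts), Mmp8 at chr9:7558179-7558428, Mmp13 at chr9:7272264-7272513 and Mmp3 at chr9:7445572-7445821 (plus strand). Capitals mark matches to the AP-1 motif TGANTCA, the Runx motif TGTGGT and the Smad box CAGAC on either strand. The TATA motif TATAAA was searched on the gene's strand only. None of the matches overlap each other here.
Adamts9: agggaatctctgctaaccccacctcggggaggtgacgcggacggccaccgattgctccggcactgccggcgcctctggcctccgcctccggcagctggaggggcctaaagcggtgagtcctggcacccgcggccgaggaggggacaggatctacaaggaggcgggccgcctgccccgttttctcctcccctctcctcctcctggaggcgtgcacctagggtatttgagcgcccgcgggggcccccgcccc
Mmp23: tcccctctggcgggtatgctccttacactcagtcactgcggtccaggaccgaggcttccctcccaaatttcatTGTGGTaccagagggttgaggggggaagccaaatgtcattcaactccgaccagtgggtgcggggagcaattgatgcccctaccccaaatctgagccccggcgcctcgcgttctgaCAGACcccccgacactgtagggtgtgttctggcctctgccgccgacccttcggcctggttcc
Mmp8: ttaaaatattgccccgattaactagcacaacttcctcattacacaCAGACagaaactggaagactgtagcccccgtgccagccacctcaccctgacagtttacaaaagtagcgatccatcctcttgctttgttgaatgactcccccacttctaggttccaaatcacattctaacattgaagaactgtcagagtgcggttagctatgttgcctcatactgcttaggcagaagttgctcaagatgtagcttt
Mmp13: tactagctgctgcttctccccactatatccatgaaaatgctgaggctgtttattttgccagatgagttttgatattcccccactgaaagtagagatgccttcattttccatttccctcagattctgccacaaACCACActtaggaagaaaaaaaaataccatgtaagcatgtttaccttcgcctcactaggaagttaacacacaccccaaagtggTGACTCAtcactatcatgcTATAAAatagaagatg
Mmp3: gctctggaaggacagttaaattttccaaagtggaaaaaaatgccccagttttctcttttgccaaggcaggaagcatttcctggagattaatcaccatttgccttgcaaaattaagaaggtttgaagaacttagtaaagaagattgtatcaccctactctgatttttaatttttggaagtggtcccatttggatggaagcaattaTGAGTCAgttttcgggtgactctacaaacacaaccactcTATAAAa
The AP-1 motif starts 35 bases before the gene start in Mmp13 and 46 bases in Mmp3, each followed by a TATA motif. Mmp23 and Mmp8 hold a Smad box, and Mmp23 and Mmp13 a Runx motif. Adamts9 holds none of the 4 in this window. Over all 32851 promoter entries, 6.75% held the AP-1, 14.0% the Runx, 42.2% the Smad and 7.59% the TATA motif. Of 51 entries for 46 members, 19.6%, 15.7%, 45.1% and 19.6% held them. The AP-1 motif was in 7 of the 8 neighbouring Mmp genes' entries as well as in those of Adam19, Adam25 and Adam29. A match describes letters and shows neither binding nor use.

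Across the 3 tissues the effect of genotype was fitted with limma (tissue and genotype as terms, 2 residual degrees of freedom) for the 62 members among 15508 genes. By the labels the tissues of a genotype came from the same 2 embryos, so the 3 pairs are not independent animals and the p-values measure the spread between these arrays only. The fit called 0 of 15508 genes (0%) after Benjamini-Hochberg adjustment, with a smallest adjusted p of 0.450 over all genes and 0.657 over the members. With the deposited values limma called 54 genes and 0 members, with smallest adjusted p-values of 4.00e-09 and 0.0534. At an unadjusted p under 0.05 it listed 1107 genes (7.14%) and 8 members. The mean difference was -3.64 (SE 0.97) for Adamts9, -2.50 (SE 0.57) for Adamts6, -2.24 (SE 0.58) for Mmp23, -2.02 (SE 0.49) for Mmp8 and -1.56 (SE 0.49) for Adamts7. Adamts2 had 2.00 (SE 0.59), Adamts18 1.43 (SE 0.51) and Adam3 -1.29 (SE 0.45), and Mmp11, not among the 8, had 2.26 (SE 0.89). The limma adjusted p of each of these was 0.657, so these differences do not stand out from the spread among tissues at this number of arrays. Of the 62 estimates, 43 were below 0, with a median of -0.52 against -0.23 over all genes. With slide as a further term the genotype estimate is that of the interzone pair alone: 34 of 62 were below 0, the median was -0.15 against -0.12, and no gene was called.

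Between tissues, in the controls, 64 members were well above background in interzone and growth plate, of which 19 were at least 2-fold higher in interzone and 14 in growth plate (over all genes 24.9% and 24.0%, 48.9% in either direction). Adamts15 was 175-fold, Adamtsl4 56.0-fold, Timp3 45.5-fold, Htra1 41.8-fold and Adamtsl1 34.6-fold higher in interzone. Adamts7 was 17.7-fold, Adamts3 9.49-fold, Adam1a 7.18-fold, Adamtsl5 5.73-fold and Adamts5 3.90-fold higher in growth plate. Other probes went the opposite way for Adamtsl5 (-0.37 and -1.73 in interzone, -5.59 and -2.57 in growth plate). So did the other Adamts5 probe (-3.64 and -6.96, the latter not well above background) and one of the other Adamts3 probes (-3.30 and -4.87). The other Adamts7 probe, at -7.47 and -8.70, was well above background in neither control tissue. With the deposited values the split was 10 and 33, against 13.2% and 59.8% over all genes.

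On the mutant arrays 69 members were well above background in both these tissues, 22 of them at least 2-fold higher in interzone and 5 in growth plate (over all genes 21.4% and 18.3%, 39.6% in either direction). Adamts15 was again higher in interzone, 135-fold, and Adamts7 again higher in growth plate, 7.42-fold. Timp3 was within 2-fold. Adam1a and Adamts5 were 28.1-fold and 3.69-fold higher in mutant interzone, the opposite direction to the controls.

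Between control interzone and interdigital tissue, 11 of 72 members were at least 2-fold higher in interzone and 20 in interdigital tissue (over all genes 14.6% and 15.1%, 29.7% in either direction). Mmp9 was 33.2-fold, Adam10 25.9-fold, Adam6 22.2-fold and Mmp15 5.10-fold higher in interdigital tissue. Mmp24, a membrane-bound MMP best known from nerve cells, was 6.72-fold and Adam23 4.98-fold higher in interzone. On the mutant arrays the counts were 14 and 12 of 72 (over all genes 18.3% and 18.0%, 36.3% in either direction), with Adamts9, Adamtsl3 and Adamts4 29.6-fold, 17.0-fold and 16.1-fold higher in interdigital tissue. Another Adamts9 probe went the opposite way, with -2.85 in mutant interzone and -4.16 in mutant interdigital tissue. The remaining Adamts9 probe was not well above background in mutant interzone and was at -6.03 in mutant interdigital tissue.

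Between control growth plate and interdigital tissue, 10 of 65 members were at least 2-fold higher in growth plate and 26 in interdigital tissue (over all genes 24.9% and 24.8%, 49.7% in either direction). Timp3 was 96.5-fold, Adamts1 70.1-fold, Adam19 62.4-fold and Adamts15 58.0-fold higher in interdigital tissue, and Adamts7 9.001-fold and Adamts3 6.85-fold higher in growth plate. The other Adamts3 probes were at -4.87 and -2.17 in growth plate against -2.56 and -1.84 in interdigital tissue. The other Adamts7 probe was not well above background in growth plate and was at -7.01 in interdigital tissue. With the deposited values the split was 35 and 12, against 65.8% and 11.5% over all genes. On the mutant arrays the counts were 5 and 21 of 71 (over all genes 13.4% and 16.3%, 29.6% in either direction), with Adamts15 143-fold higher in interdigital tissue and Adamts7 4.63-fold higher in growth plate.

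The members highest in 1 tissue by at least 2-fold over both others in both genotypes were few, as among all genes. Mmp24 was so in interzone (1 of 62, against 1.06% of all genes), Adamts7 in growth plate (1 of 62, against 1.21%) and Mmp15 and Adam6 in interdigital tissue (2 of 62, against 0.903%). Mmp24 was at 1.23 in control and 0.20 in mutant interzone and between -2.04 and -0.83 on the 4 other arrays. Its other probe did not have interzone highest, with -1.77 in control interzone against -0.83 in interdigital tissue and -1.07 in mutant interzone, below mutant growth plate. The other Adamts7 probe had growth plate highest in the mutants alone, at -4.14. In control growth plate it was at -8.70, not well above background, and on the 4 other arrays between -8.73 and -7.01. Adamts15 instead set 1 tissue apart from below, at -5.37 and -6.48 in growth plate against 0.49 to 2.08 elsewhere. Adamts1 was also lowest in growth plate in both genotypes, at -5.08 in control and -0.77 in mutant. Members lowest in 1 tissue were not searched for. In limma's test of tissue, 0 of 15508 genes (0%) passed, with a smallest adjusted p of 0.930, while 763 genes (4.92%) and 4 members, Adamts15, Adamts7, Mmp15 and Mmp24, had an unadjusted p under 0.05. With the deposited values, 30 genes and 1 member passed.

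Probes of the same gene often differed. Of the 79 members, 38 had other probes, and in 52 of the 116 comparisons of such a probe within a pair the brightest probe was past 2-fold. The other probe had the same direction in 35 of the 52 and was past 2-fold the opposite way in 7, for Adam15, Adam1b, Adam30, Adamts9, Adamtsl5 and Mmp24.

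The other genes of these pathways came from 2 lists. The list of activators, inhibitors and other proteases held 28 genes. In interzone 3 were at least 2-fold higher and 6 lower on the mutant array of 22 above background on both (median -0.28), in growth plate 3 and 11 of 22 (median -0.91), and in interdigital tissue 3 and 6 of 26 (median -0.06). Reck, a membrane inhibitor of MMPs, was at 1.08 in control and -1.56 in mutant interzone. The cysteine protease gene Ctsk, also an osteoclast marker, was at 0.70 and -3.57 in interzone and 1.13 and -3.77 in growth plate. Not in these counts, for lack of a control signal well above background in interzone and growth plate, were Plau, the urokinase gene, at 0.68 and -0.28 on those mutant arrays, and Papln, at 0.62 and 0.54. In interdigital tissue Papln was at -3.13 in control against 0.60 in mutant. Of 19 substrate genes, 2 were higher and 4 lower in interzone (median -0.27), 4 and 7 in growth plate (median -0.64) and 1 and 3 in interdigital tissue (median -0.44). Acan, the aggrecan gene, was at 2.73 and 0.66 in interzone and 5.33 and 1.51 in growth plate, and at 1.70 and 1.76 in interdigital tissue, in control and mutant.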

How the data were processed

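RNA of 6 laser-captured samples (3 tissues, 2 genotypes, 1 array each) was amplified with SuperAmp, and 250 ng of product was labelled with Cy3, per the labels' protocols. Groups came from the titles, since 5 descriptions name irradiated human blood, and 1 title spells the genotype Tbr2Prx1KO. The deposited scanner files hold the intensity of each spot on a 1-colour Agilent mouse array, processed by the authors with Feature Extraction 9.5.1.1, per the file headers. A further deposited table holds a ratio, which equalled each spot's signal over its array's median within 0.9999 to 1.0001.

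From the processed signals, control and outlier spots were left out, spots of a probe were averaged, and log2 levels were scaled to the 75th percentile. The precision is limited by 1 array per group; no spot was saturated. Gene names were matched to RefSeq symbols (24524 probes) or older symbols (7886), and 8764 of 41174 probes stayed unmatched. A difference was counted where both arrays were well above background and 2-fold apart; where only 1 was, an "at least" bound was taken as described in the text. limma 3.58.1 (R 4.3.3, Python 3.11.15) tested genotype and tissue in 1 additive fit, with Benjamini-Hochberg adjustment, and was tested on simulated data. Members described in full were a core list, the 8 largest differences per direction and pair with a bright array, the 3 brightest bounds, and those alike in all 3 tissues or highest in 1 tissue in both genotypes. The members, lists and tests were chosen with earlier results of these data known; Mmp3 and the neighbouring Mmp genes outside the rule were added after their values were seen. Alternatives were normexp background correction (offset 50), quantile normalization, the percentile over detected probes, the deposited table, the mean over probes, 4-fold, no filter, slide as a term and leaving out tissues.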

Additional observations from a re-analysis of the deposited data

Results flagged for a closer look

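For 11 members the mutant array was at least 2-fold higher in 1 tissue and at least 2-fold lower in another; with 1 array per group the difference between tissues was not tested. Values are mutant minus control on the log2 scale. Adam19 had 2.91 in interzone, 4.41 in growth plate and -1.62 in interdigital tissue, and Adam6 had 2.06, 1.12 and -1.18. Adamts4 had -3.50, 3.44 and 1.26, and Adamtsl5 had 1.05, -1.53 and 1.08. Between interzone and growth plate, Adam1a had 1.05 and -6.61, Adam8 had 1.18 and -1.62, and Adamtsl1 had -1.24 and 2.63. Between interzone and interdigital tissue, Adam28 had 1.12 and -1.92, Adam29 had 3.02 and -1.10, and Mmp16 had 1.44 and -1.004. Timp3 had 4.99 in growth plate and -1.32 in interdigital tissue. For Adamtsl5, Adam28 and Adam29 the opposite directions were not kept by the mean over probes, which gave 2.27 for Adamtsl5 in growth plate and -0.54 and -0.34 for Adam28 and Adam29 in interzone, and the other Adam19 probes were within 2-fold in interzone and growth plate. The other Adam28 and Adam29 probes were not well above background on the mutant interzone array.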

How the results depend on the processing

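The labels carry no replicate numbers, so no block by number could be fitted; control and mutant were paired by tissue in the limma fit. Each group has 1 array, signal over background was lowest on the growth plate control array, and 16 members were above background on some arrays only. Of 102 member differences past 2-fold, 95 stayed past 2-fold in the same direction with the percentile over detected probes, 94 with the deposited table, 92 with quantile normalization, 80 with the mean over probes, 78 with normexp and 36 past 4-fold. The reversed values (mutant minus control, log2) were, with the mean over probes, Adam15 0.62, Adamts7 1.13, Adamtsl5 2.27, Mmp24 0.20 and Mmp9 1.33 in growth plate and Adam1b 0.17, Adam28 -0.54 and Adam29 -0.34 in interzone. That mean took in dim probes. For Adamts7, Mmp9, Adam1b, Adam28 and Adam29 it included a probe not well above background on at least 1 array of the pair. With normexp the reversed values were Adam23 0.15, Adam3 0.62, Adam5 1.76, Adamts8 1.82, Mmp13 1.80 and Mmp28 1.21 in interzone. With quantile normalization they were Adam2 -0.18 and Adam6 -0.13, and with the deposited table Adam2 -0.0487 and Timp2 -0.0304, all in growth plate. The cause was not tested.

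Counts of members (mutant higher, then lower) moved by over 1.5 times as follows. Normexp gave 28 and 9 in interzone and 3 higher in interdigital tissue, and quantile normalization 10 higher there. The deposited table gave 44 lower in growth plate, and no filter 20 higher. At 4-fold the counts were 6 and 8 in interzone, 10 lower in growth plate, and 0 and 2 in interdigital tissue. Between control interzone and growth plate, they were 10 and 33 with the deposited table, 12 and 4 at 4-fold and 8 lower with the mean over probes. Between control growth plate and interdigital tissue they were 35 and 12 with the deposited table, 22 higher with quantile normalization, 5 higher with the mean over probes and 16 lower at 4-fold, and between interzone and interdigital tissue 4 and 7 at 4-fold. Of members called in either direction, the share that was higher moved in interzone from 47.1% to 75.7% (normexp) and 58.3% (deposited table), in growth plate from 31.7% to 18.5% (deposited table) and 43.2% (percentile over detected probes), and in interdigital tissue from 18.5% to 31.3% (quantile). Over all genes the same share moved in interzone from 44.1% to 72.4% (normexp) and 54.5% (deposited table). In growth plate it moved from 40.4% to 16.8% (deposited table) and 54.5% (percentile over detected probes). In interdigital tissue it moved from 38.5% to 49.3% (quantile). The median of all genes was -0.11 in interzone, and 0.32 with normexp.

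Of the 5 members lower in all 3 tissues, Adamts6, Adamts9, Mmp8 and Mmp23 stayed so under every alternative run except 4-fold, which left 0, and Adamts7 was lost with normexp, quantile normalization, the deposited table and the mean over probes. Members higher in all 3 numbered 1 with quantile normalization and the deposited table (Adamts2) and 1 with the mean over probes (Adamtsl5); without the growth plate pair 8 were lower and 2 higher in both remaining tissues. Leaving out each tissue in turn, limma called 0 members for genotype; for tissue it called 1 with the deposited table and 0 with normexp, quantile normalization and no filter.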
